A study of Mus musculus with 6 samples.

Results

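MHC class II genes were followed in the immune cells of mouse pancreatic tumors. The 7 genes were listed by name out of 34187 gene features in the count matrices, with no rule on their values but with earlier results of these data known. They are the class II alpha chain H2-Aa, the beta chains H2-Ab1 and H2-Eb1, the invariant chain Cd74, both chains of the peptide editor H2-DM (H2-DMa and H2-DMb1), and the transcriptional coactivator Ciita. Their levels were read in macrophage-like, monocyte-like and dendritic cell-like cells, with T and NK cells as a background.

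Class II molecules carry peptides from proteins that a cell has taken up and show them to CD4 T cells. The alpha and beta chains assemble with the invariant chain, which is cut away by cathepsins in endosomes, and H2-DM then exchanges its last fragment for a peptide. Transcription of these genes depends on Ciita, which is recruited by factors bound to the X and Y boxes of class II promoters. Dendritic cells hold high levels, macrophages gain them under interferon gamma, and IL-10 is known to lower class II on the surface of monocytes and macrophages, partly through the ubiquitin ligase encoded by Marchf1.

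All mice were C57BL/6 and carried a subcutaneous tumor of the 6694c2vTRP1 pancreatic cancer line. They received 2 intraperitoneal injections of PBS, of mono-IL10 (a monomeric IL-10, 26 µg per mouse) or of IL10/2-Trikine (the same IL-10 joined to an IL-2 variant that recruits IL-2Rβ, 30.6 µg per mouse), the first injection on day 8. Tumors were collected on day 14, their CD45+ fraction was enriched with beads, and the cells were labeled per mouse with 1 of 5 hashtag antibodies, pooled by treatment and run as droplet-based 5′ single-cell RNA sequencing. Each group held 5 mice, numbered here by hashtag (5 hashtags were found in the PBS library, whose number of mice the labels do not give). The age and sex of each mouse were not given in the sources used here. The study's methods name both sexes for this tumor model, and an age range for its tumor growth experiment with that model. Each treatment was 1 library, so treatment and library cannot be told apart, and the comparisons with PBS share its 5 mice.

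The PBS library held 44412 barcodes and 515236552 UMIs, the mono-IL10 library 30528 barcodes and 458860129 UMIs, and the IL10/2-Trikine library 55504 barcodes and 364814102 UMIs. Pairs of libraries shared 408 to 700 barcode sequences. The labels describe CD45+ tumor-infiltrating lymphocytes, yet 41288 of the clustered barcodes fell in clusters named tumor epithelial cell-like. With a mouse assigned, macrophage-like cells numbered 5624 (PBS), 5129 (mono-IL10) and 4261 (IL10/2-Trikine), with median depths of 4920, 6224 and 2725 UMIs. Dendritic cell-like cells numbered 527, 293 and 210, monocyte-like cells 186, 119 and 31, and annotated T and NK cells 348, 635 and 400. The 9 macrophage markers summed to 26912 to 32019 CPM per mouse in macrophage-like cells, against 373 to 6923 CPM in dendritic cell-like and 204 to 772 CPM in T and NK cells. The class II genes were left out of the genes used for clustering, so their levels did not place a cell. Levels are given as CPM, the UMIs of a gene scaled to 1000000 UMIs of the class in a mouse, and error values after ± are SDs over mice and, after a log2 fold change, SEs of the fit.

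The letters of the X and Y boxes can be read in the promoter windows of 3 of the 7 genes, and the stretches around them are shown so that the motifs and their spacing can be compared. RefSeq windows of the GRCm38.p6 build (250 bases before to 50 after a gene's start) were read for H2-Aa, H2-Eb1, H2-DMb1 and H2-DMa. None was read for H2-Ab1, Cd74 and Ciita, so nothing is said of their promoters. The count files use GRCm39, so the coordinates below belong to GRCm38.p6 alone. Capitals mark GNAAC, a core of the X box, and GATTGG, the Y box, searched on both strands.
H2-Aa chr17:34287852-34287919 (minus strand): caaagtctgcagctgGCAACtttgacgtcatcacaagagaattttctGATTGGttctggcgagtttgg
H2-Eb1 chr17:34305761-34305827 (plus strand): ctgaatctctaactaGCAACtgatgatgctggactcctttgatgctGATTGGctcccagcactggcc
H2-DMb1 chr17:34153082-34153149 (plus strand): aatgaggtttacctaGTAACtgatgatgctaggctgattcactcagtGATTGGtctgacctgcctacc
H2-Ob chr17:34238803-34238867 (plus strand): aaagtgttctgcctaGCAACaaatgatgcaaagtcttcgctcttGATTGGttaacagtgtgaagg
H2-Ob, a beta chain of the H2-DM inhibitor H2-O, is no member and is shown for its shorter spacing. Of other class II genes outside the members, H2-Oa and H2-Eb2 also held the pair, with gaps of 27 and 26 bases. The gap between both motifs was 27 bases in H2-Aa and H2-DMb1, 26 bases in H2-Eb1 and 24 bases in H2-Ob. Neither H2-DMa window held the pair, and the window of H2-DMb2, a near-identical neighbor of H2-DMb1, did not hold it either. The pair at a spacing of 20 to 35 bases was found in 0.922% of 32851 promoters of the same length, GATTGG alone in 16.1% and GNAAC alone in 84.8%. The letters and the spacing were chosen with these sequences in view, so the matches are a description and not evidence of binding.

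Each of the 7 genes was higher in dendritic cell-like than in macrophage-like cells of the same mouse, in 15 of 15 mice. For H2-Aa the mean was 6905 CPM in dendritic cell-like and 1663 CPM in macrophage-like cells. Folds between classes are taken from the mean within-mouse difference of log2(CPM + 1), and for H2-Aa this fold was 4.34. The beta chains H2-Ab1 and H2-Eb1 differed 4.74-fold and 5.31-fold, and Cd74 3.24-fold. The peptide editor stood closer, with 1.75-fold for H2-DMa and 2.06-fold for H2-DMb1, while Ciita differed 6.09-fold, with means of 69.6 CPM in dendritic cell-like and 10.8 CPM in macrophage-like cells. The exact two-sided sign-flip test over 15 mice gave p = 6.1e-05 for each gene, the smallest it can give (adjusted p = 8.14e-05 over 28 tests).

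Monocyte-like cells stood above macrophage-like cells of the same mouse. In the 11 mice with enough of them, H2-Aa was 1.68-fold, H2-Ab1 1.87-fold, H2-Eb1 1.58-fold and Cd74 1.496-fold of the macrophage-like level. H2-DMa was 1.605-fold, H2-DMb1 2.13-fold and Ciita 3.204-fold. These differences had the same direction in 10 or 11 of 11 mice (exact sign-flip p of 0.000977 to 0.00195), and Ciita rested on few UMIs per mouse. T and NK cells held the lowest levels of the 4 classes, from 18.2-fold (H2-DMa) to 50.6-fold (H2-Aa) below macrophage-like cells for 6 of the genes. Of these, H2-DMb1 rested on 14 UMIs in T and NK cells. In cells of at least 2000 genes, from 8 mice, the folds were 13.2 for H2-DMa and 80.7 for H2-Aa. Ciita rested on 4 UMIs in T and NK cells over 15 mice, with class means of 10.8 and 0.598 CPM, and no fold is given. The second alpha chain, H2-Ea, which C57BL/6 mice are known not to make, was at 0 to 2.33 CPM in every mouse and class.

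The proportions among the genes were read per mouse. Relative to H2-Aa in the same mouse, Cd74 stood at 2.67 ± 0.147 in macrophage-like and 2.14 ± 0.105 in dendritic cell-like cells of PBS mice. H2-DMa stood at 0.155 ± 0.0388 and 0.0754 ± 0.00744, so H2-DMa stood higher against H2-Aa in macrophage-like cells. Across treatments the Cd74 ratio in macrophage-like cells was 2.67 ± 0.147 (PBS), 2.76 ± 0.152 (mono-IL10) and 2.69 ± 0.128 (IL10/2-Trikine). The H2-Eb1 ratio was 0.901 ± 0.0301, 0.835 ± 0.0532 and 0.793 ± 0.0238. The H2-Ab1 ratio was 0.796 ± 0.0345, 0.802 ± 0.0105 and 0.755 ± 0.0318 in macrophage-like and 0.914 ± 0.0617, 0.843 ± 0.0499 and 0.819 ± 0.0512 in dendritic cell-like cells. These ratios were not tested.

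Cluster levels of class II were read within the macrophage-like class. Averaged over mice, H2-Aa was 229.5 ± 144 CPM in cluster 50 (led by Cd163, Pf4, Ppbp, Mrc1 and Folr2) and 229.97 ± 157 CPM in cluster 58. It was 1071 ± 362 CPM in cluster 18 (Pf4, Gpnmb, F13a1, Arg1) and 1842 ± 674 CPM in cluster 5 (Il10, Plau, Tlr2, Cd83). Cluster 34, led by Nrg1, Acss1, Apoe, Cxcl9 and complement C1q genes, held the most, 3494 ± 932 CPM. Cd163, Mrc1 and Folr2 are known as markers of resident-type macrophages, and Cxcl9 as an interferon gamma target.

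Among dendritic clusters, the cDC2-like cluster 43 held 9530.3 ± 1316 CPM of H2-Aa and 19249 ± 2386 CPM of Cd74, the highest of the clusters examined. The cDC1-like cluster 54 held 5866 ± 727 and 12518 ± 1887 CPM, and the mature cluster 33 held 3172 ± 885 and 5931 ± 1963 CPM. These means and SDs pool the treatments over mice with at least 10 cells. In the order PBS, mono-IL10 and IL10/2-Trikine, these were 5, 1 and 2 mice for cluster 54 and 5, 3 and 3 for cluster 33. Cluster 43 had 5 mice in each group. Ciita was 100.3 ± 36.04 CPM in cDC1-like, 89.04 ± 33.3 CPM in cDC2-like and 16.97 ± 20.4 CPM in mature cells. The mature cluster was also low in the peptide editor, with H2-DMa at 116 ± 51.7 CPM against 526 ± 65.5 CPM in cDC1-like and 601 ± 99.9 CPM in cDC2-like cells. Cluster 16, which met no class rule and was led by Ear2, Dcstamp, Mgl2 and Ccl17, held 6291 ± 819 CPM of H2-Aa. Its best marker score was for macrophages, and it had 993 (PBS), 210 (mono-IL10) and 133 (IL10/2-Trikine) cells. Unnamed clusters 21 and 47 held 3336 and 3433 CPM over all their cells, also with macrophages as the best score. The macrophage-like class and its cluster shares leave these clusters out. Differences between clusters were not tested.

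**Figure D1:**
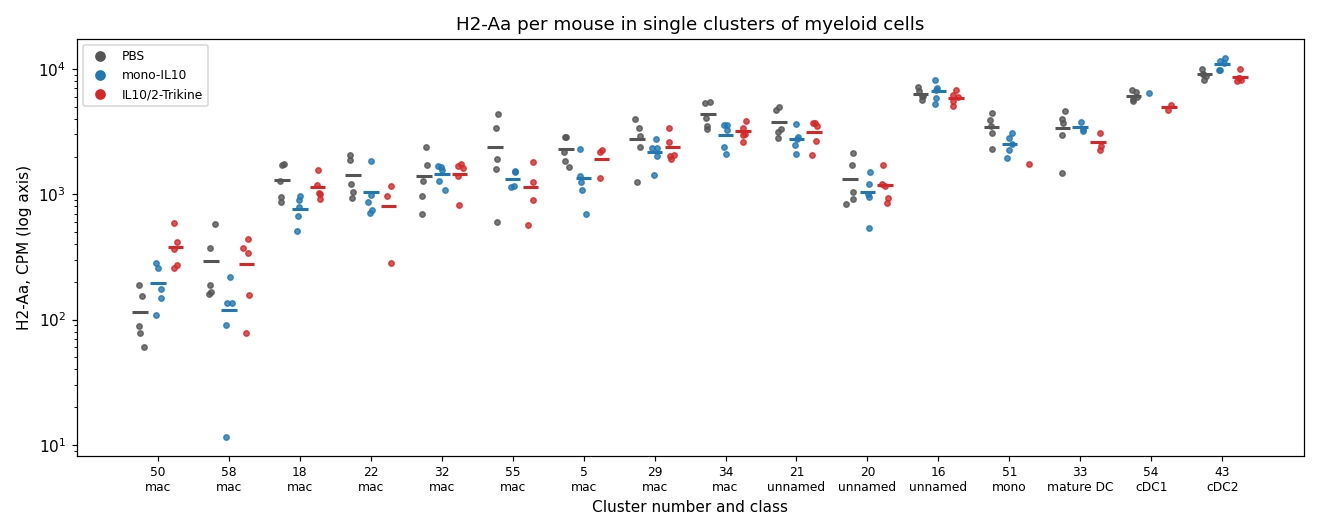
H2-Aa level (CPM, log axis) per mouse in 16 clusters, 9 macrophage-like, 1 monocyte-like, 3 dendritic and 3 unnamed, with colors for treatment. Clusters 50 and 58 average 230 CPM, cluster 34 averages 3494 CPM and the cDC2-like cluster 43 averages 9530 CPM, and the IL10/2-Trikine mice lie above every PBS mouse in cluster 50.

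The first treatment question was whether IL10/2-Trikine changed class II in macrophage-like cells relative to PBS. H2-Aa measured 1634, 2877, 1326, 3011 and 1708 CPM in PBS mice 1 to 5 and 1538, 1084, 1044, 1832 and 1192 CPM in IL10/2-Trikine mice 1 to 5. H2-Eb1 measured 1522, 2680, 1157, 2709.8 and 1485 CPM in PBS and 1223, 862, 813, 1519.9 and 913 CPM in IL10/2-Trikine. PBS mice 2 and 4 stood highest for both genes, PBS mice 3 and 5 lay inside the IL10/2-Trikine range, and mouse 1 did so for H2-Aa. 

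Of the 7 genes, 5 were lower in IL10/2-Trikine than in PBS and 0 were higher, by edgeR's quasi-likelihood test with Benjamini-Hochberg adjustment over all genes tested. Of all genes, 16.2% were called in this comparison and 7.69% were called lower. Among the chains, H2-Eb1 fell by 44.3% (log2 fold change, log2FC, -0.84 ± 0.26 SE, adjusted p = 0.0335) and H2-Ab1 fell by 39.1% (log2FC -0.72 ± 0.24, adjusted p = 0.0446). H2-Aa had a log2FC -0.66 ± 0.24, adjusted p = 0.0714, and did not pass. It passed without a filter on low counts (log2FC -0.70, adjusted p = 0.00377), with the UMI sums thinned to the lowest total (log2FC -0.67, adjusted p = 0.0406), and without PBS mouse 3, mono-IL10 mouse 4 or IL10/2-Trikine mouse 4. The median over the 7 genes was -0.63, against 0.0069 over all genes tested.

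The invariant chain and the peptide editor went with the chains. Cd74 measured 4611, 7354, 3704, 7472 and 4567 CPM in PBS and 3959.5, 3111, 2816, 4689 and 3272 CPM in IL10/2-Trikine, a fall of 35.6% (log2FC -0.63 ± 0.21, adjusted p = 0.0492). For H2-DMa the values were 286, 296, 262, 379 and 292 CPM in PBS and 232, 249.7, 215, 269.9 and 224 CPM in IL10/2-Trikine, log2FC -0.34 ± 0.10, adjusted p = 0.0287. H2-DMb1 ranged from 81.3 to 124 CPM in PBS and from 58.5 to 94.2 CPM in IL10/2-Trikine, log2FC -0.56 ± 0.17, adjusted p = 0.0276, with counts that near-identical H2-DMb2 makes uncertain. Each of these 3 genes overlapped between the groups by a part of their ranges. Ciita, at 9.03 to 22.4 CPM in PBS and 6.996 to 14.6 CPM in IL10/2-Trikine, had log2FC -0.46 ± 0.25, adjusted p = 0.243, and did not pass.

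Whether these 5 genes passed the test depended on single mice and on how cells were grouped. Without PBS mouse 2, without PBS mouse 4, or without IL10/2-Trikine mouse 3 or mouse 5, 0 of the 7 genes passed, without IL10/2-Trikine mouse 1 or mouse 2, 1 passed, and without mono-IL10 mouse 2, which enters the estimate of the spread, 3 passed. The log2 fold changes stayed below 0 with any 1 mouse left out, from -1.004 to -0.66 for H2-Eb1, -0.87 to -0.56 for H2-Ab1, -0.76 to -0.48 for Cd74, -0.67 to -0.50 for H2-DMb1 and -0.40 to -0.25 for H2-DMa. Each macrophage-like cluster was also given the same weight in every mouse, in a limma fit of clusters with 3 or more cells per mouse. In single IL10/2-Trikine mice, clusters 5 and 22 held as little as 0.824% and 1.03% of the class. In that fit 0 passed, and the log2 fold changes were -0.52 for H2-Eb1, -0.45 for H2-Ab1, -0.36 for Cd74, -0.25 for H2-DMb1 and -0.16 for H2-DMa. The part of the few cells and of the other test was not tested. DESeq2 left 2 (H2-DMa and H2-DMb1), a coarser clustering 0 and a wider naming rule 0. The log2 fold changes of H2-Eb1, H2-Ab1 and Cd74 were -0.85, -0.73 and -0.64 with DESeq2, -0.74, -0.63 and -0.56 with the coarser clustering and -0.73, -0.62 and -0.52 with the wider rule.

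Different clusters held most of the class in each group. Clusters 22, 5 and 32 led in PBS with 19.7%, 17.98% and 15.2% of the macrophage-like cells of a mouse. Clusters 50, 34 and 29 led in mono-IL10 with 21.1%, 19.7% and 17.1%, and clusters 18, 32 and 50 led in IL10/2-Trikine with 32.9%, 18.96% and 15.7%. The class II-low cluster 58 made up 5.26% ± 2.48, 9.46% ± 3.27 and 9.81% ± 3.73 in the same order of groups. The class II-low cluster 50 made up 2.55% ± 0.892 in PBS, 21.1% ± 4.48 after mono-IL10 and 15.7% ± 7.49 after IL10/2-Trikine, and the class II-high cluster 34 made up 12.8% ± 2.25, 19.7% ± 5.36 and 9.28% ± 1.63. Over all cells of a cluster, the median depth was 2484 UMIs in cluster 18, 3290 in cluster 32 and 3971 in cluster 50. It was 5302 UMIs in cluster 29, 5505 in cluster 5, 6218.5 in cluster 34 and 6324 in cluster 22. The part of depth in these shares was not tested. Markers of other cells also differed. The summed level of 14 T and NK cell markers in macrophage-like cells was 91.1 to 116 CPM in IL10/2-Trikine and 18.9 to 65.3 CPM in the other mice, and that of 6 tumor epithelial markers had medians of 36.8 (PBS), 42.2 (mono-IL10) and 78.8 CPM (IL10/2-Trikine), with Cldn4 at 0 in the PBS and mono-IL10 mice. The 6 neutrophil markers summed to 260.4 to 343 CPM in PBS, 134 to 314 CPM in mono-IL10 and 229.9 to 718 CPM in IL10/2-Trikine, with medians of 277, 206 and 501 CPM. Leaving out droplets with 2 or more UMIs of T, NK or tumor epithelial markers left 4 of the 7 genes called, and the part of the neutrophil markers was not tested.

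**Figure D2:**
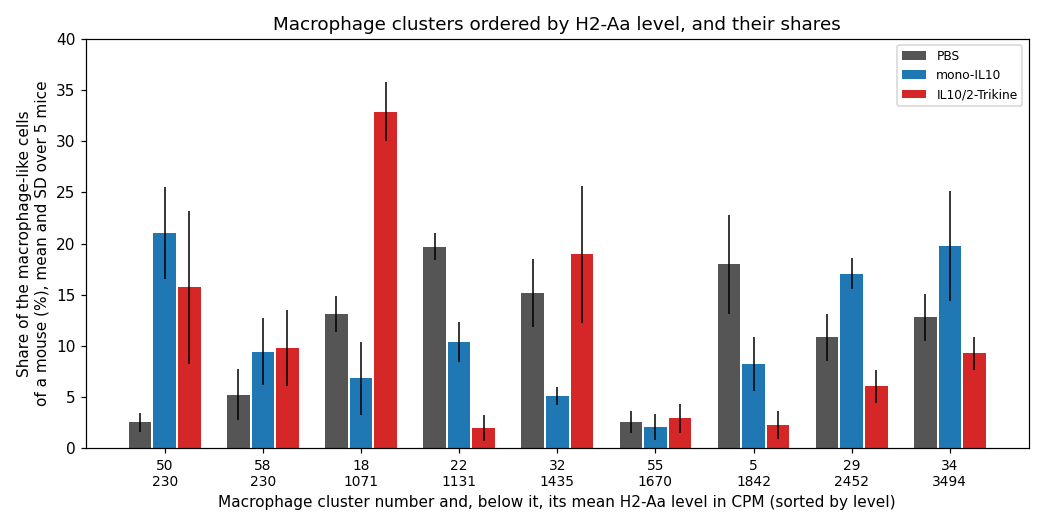
Share of each mouse's macrophage-like cells (percent, bars are means of 5 mice with SDs) in 9 clusters, ordered from the lowest to the highest mean H2-Aa level. The clusters also differ in depth, from a median of 2484 UMIs in cluster 18 to 6324 in cluster 22. Of the 2 clusters lowest in H2-Aa, cluster 50 takes 2.55% in PBS, 21.1% after mono-IL10 and 15.7% after IL10/2-Trikine and cluster 58 takes 5.26%, 9.46% and 9.81%, and cluster 18 takes 32.9% in IL10/2-Trikine.

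In macrophage-like cells of mono-IL10 mice, Ciita was the 1 gene called against PBS. Ciita measured 11.98, 16.1, 9.03, 22.4 and 12.8 CPM in PBS and 10.6, 7.08, 6.71, 8.58 and 5.13 CPM in mono-IL10. PBS mouse 3 lay inside the mono-IL10 range and the other 4 PBS mice lay above it. It fell by 42.1% (log2FC -0.79 ± 0.22, adjusted p = 0.0113), where 24.1% of all genes were called and 11.6% were called lower, so that 1 of 7 lies near the share over all genes. The class II chains measured 1702, 1498, 1185, 2320.1 and 995 CPM of H2-Aa in mono-IL10, with H2-Aa at log2FC -0.36 ± 0.24, adjusted p = 0.311, H2-Ab1 at log2FC -0.34, H2-Eb1 at log2FC -0.46 and Cd74 at log2FC -0.30, none of which passed. The median over the 7 genes was -0.34. Ciita did not pass with the sums per mouse thinned to the lowest total (-0.56) or with fixed cluster weights (-0.59).

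Between both treated groups, 0 of the 7 genes were called in macrophage-like cells by edgeR, where 10.4% of all genes were called. An unadjusted p below 0.05 was reached by 1, H2-DMb1, with a log2FC -0.43 ± 0.17, adjusted p = 0.114. Ciita was at log2FC 0.33 and H2-Eb1 at log2FC -0.39 (adjusted p of 0.495 and 0.408). The number called was 0 also with DESeq2, and 1 with no filter on low counts. Fixed cluster weights turned the direction of H2-Eb1 (0.047), H2-Aa (0.094) and H2-DMa (0.047).

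**Figure D3:**
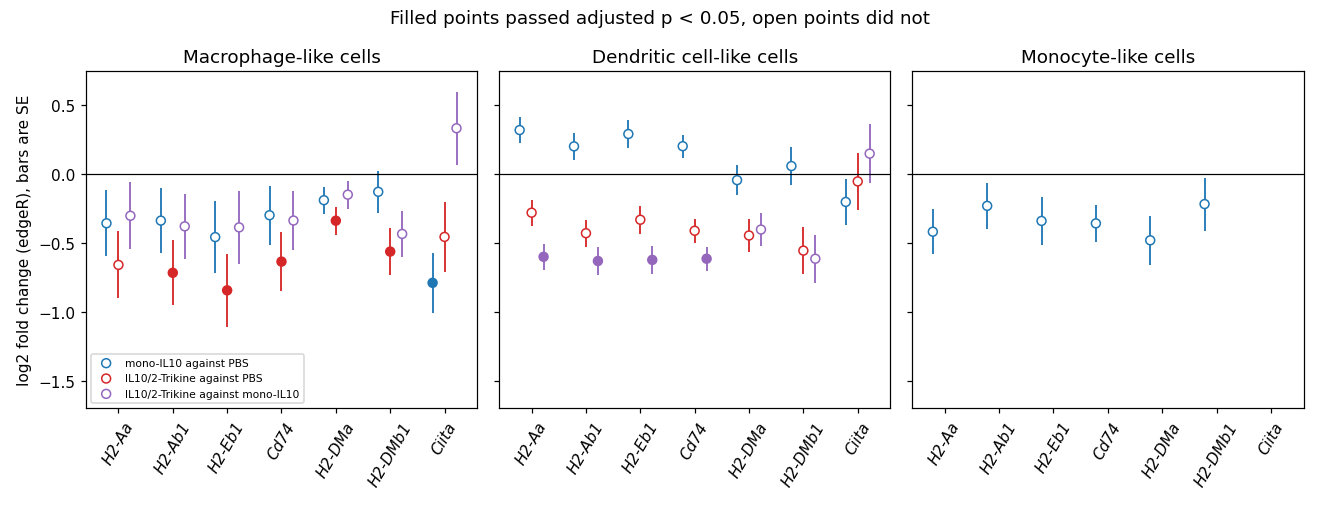
Log2 fold change with its SE for each class II gene in macrophage-like, dendritic cell-like and monocyte-like cells, filled where the adjusted p is below 0.05. In macrophage-like cells 5 genes are filled for IL10/2-Trikine against PBS and 1, Ciita, for mono-IL10 against PBS. In dendritic cell-like cells the 4 filled points are IL10/2-Trikine against mono-IL10, and the monocyte-like panel shows mono-IL10 against PBS for 6 genes with none filled.

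Single clusters were then compared by number, a step added after the class results were seen. In the class II-high cluster 34, H2-Aa measured 4027, 5448, 3528, 5324 and 3342 CPM in PBS, 3572, 3236, 2370.1, 3595 and 2095 CPM after mono-IL10 and 3843, 3041, 2614, 3391 and 2979 CPM after IL10/2-Trikine. PBS mice 2 and 4 were again the highest, and PBS mice 3 and 5 lay inside both treated ranges. In mono-IL10 against PBS, 5 of 7 genes were lower, among 10.7% of all genes called and 4.63% called lower. They were H2-Eb1 (log2FC -0.60 ± 0.16, adjusted p = 0.0126), H2-Aa (log2FC -0.49), H2-Ab1 (log2FC -0.47), Cd74 (log2FC -0.42) and H2-DMa (log2FC -0.33). In IL10/2-Trikine against PBS, 3 were lower, H2-Eb1 (log2FC -0.61 ± 0.16, adjusted p = 0.0255), H2-Ab1 (log2FC -0.52) and Cd74 (log2FC -0.47), among 1.75% called lower. Without PBS mouse 2 or 4 or IL10/2-Trikine mouse 2, 3 or 5, the second count was 0. The first was 1 without PBS mouse 4 or mono-IL10 mouse 3 or 5 and 2 without PBS mouse 1 or 2, and DESeq2 called 2.

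Lower class II chains in mono-IL10 than in PBS were also called in 3 other clusters. In cluster 5, H2-Eb1 (log2FC -0.81 ± 0.20, adjusted p = 0.00818), H2-Aa (log2FC -0.70) and H2-Ab1 (log2FC -0.68) were lower, among 3.24% of genes called lower. In cluster 18 these were H2-Eb1 (log2FC -1.12 ± 0.24, adjusted p = 0.00561) and H2-Aa (log2FC -0.75), among 0.851%. In the unnamed cluster 21, which was led by Ccl24, Arg1 and Ccr2, H2-Eb1 was lower (log2FC -0.58 ± 0.18, adjusted p = 0.04396), among 4.19%. DESeq2 called 0 of the 7 in clusters 5 and 21, at log2 fold changes of -0.82 (H2-Eb1), -0.71 (H2-Aa) and -0.69 (H2-Ab1) in cluster 5 and -0.56 (H2-Eb1) in cluster 21. In clusters 16, 20, 22, 29, 32, 33, 51, 55 and 58, edgeR called 0 of the members in each of 25 comparisons, in which 0.0443% to 11.6% of all genes were called. Per comparison 0 to 5 members had an unadjusted p below 0.05 there, and DESeq2 called 1 in cluster 55 and 0 elsewhere.

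The opposite direction was found in cluster 50, 1 of the 2 class II-low clusters. H2-Aa measured 87.99, 60.8, 77.7, 189.6 and 153 CPM in PBS, 259, 284, 109, 149 and 176 CPM after mono-IL10 and 413, 258, 272, 589 and 366 CPM after IL10/2-Trikine. Each IL10/2-Trikine mouse lay above each PBS mouse, and the mono-IL10 mice fell between and overlapped both. In IL10/2-Trikine against PBS, H2-Aa (log2FC 1.68 ± 0.32, adjusted p = 0.00130), H2-Eb1 (log2FC 2.07 ± 0.49, adjusted p = 0.0123) and H2-Ab1 (log2FC 1.28 ± 0.31, adjusted p = 0.0133) rose, among 2.11% of all genes called higher. Against mono-IL10, H2-Aa (log2FC 0.78 ± 0.20, adjusted p = 0.0317) and H2-Ab1 (log2FC 0.74 ± 0.20, adjusted p = 0.0422) were higher, among 1.16%. The PBS values rest on 21 to 39 cells per mouse, and at 60.8 to 189.6 CPM of H2-Aa they overlapped the T and NK cells of PBS mice (47.1 to 143 CPM), so these folds are over levels not shown to stand above RNA from other cells. The count against PBS was 1 without PBS mouse 1, and the count against mono-IL10 was 0 with DESeq2 (H2-Aa at 0.86 and H2-Ab1 at 0.87), 0 without mono-IL10 mouse 3, 4 or 5 or IL10/2-Trikine mouse 1, 4 or 5, and 1 without IL10/2-Trikine mouse 3. In mono-IL10 against PBS edgeR and DESeq2 called 0, with 2 below an unadjusted 0.05 and 5.09% of all genes called, and edgeR called 2 without mono-IL10 mouse 3.

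Monocyte-like cells were few in the clustering used here, and Ciita did not pass the filter on low counts there. H2-Aa measured 2304, 4455, 3104, 3886 and 3497 CPM in PBS and 2530.1, 2795, 2258, 3105 and 1955 CPM in mono-IL10, and 1739 CPM in the 1 IL10/2-Trikine mouse with at least 10 such cells, mouse 2. PBS mice 1 and 3 lay inside the mono-IL10 range and the other 3 PBS mice above it. H2-DMa measured 467, 567, 461, 529 and 585 CPM in PBS and 335, 475, 359.98, 262 and 373 CPM in mono-IL10, and 1 of the 5 mono-IL10 mice reached the PBS range. By edgeR, 0 of the 6 genes tested were called in mono-IL10 against PBS, where 2.37% of all genes were called, and 3 had an unadjusted p below 0.05. H2-Aa was at log2FC -0.42 ± 0.16, adjusted p = 0.211, Cd74 at log2FC -0.36 ± 0.14, adjusted p = 0.195 and H2-DMa at log2FC -0.48 ± 0.18, adjusted p = 0.177. The 6 neutrophil markers summed to 717 to 3242 CPM in PBS and 49.1 to 2433 CPM in mono-IL10, with medians of 1311 and 149 CPM, and their part was not tested. For IL10/2-Trikine against PBS the lone mouse was assumed to vary like the other groups, and H2-Aa was at log2FC -1.09 ± 0.33, adjusted p = 0.495 with 0 genes called and 3 below an unadjusted 0.05, among 0.0293% of all genes called. Against mono-IL10, 0 were called, 2 were below an unadjusted 0.05 and 0% of all genes were called. DESeq2 called 0 in each of these comparisons. A coarser clustering named 1013, 571 and 489 cells monocyte-like, with 5 mice in each group. They came from 1 cluster of 2418 cells, while the monocyte-like cluster 51 used here held 507. Its leading genes included Chil3, which also led cluster 51, and F10, which also led the unnamed cluster 21 (1948 cells). Which cells it took in was not examined. The coarser clustering gave 2 calls for mono-IL10 against PBS, H2-Eb1 (-0.60) and H2-DMa (-0.36), and 3 for IL10/2-Trikine against PBS, H2-DMb1 (-0.59), H2-Ab1 (-0.52) and H2-DMa (-0.41). No share over all genes is given for these calls, so they cannot be set against a background.

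In dendritic cell-like cells the calls by edgeR were between the treated groups. H2-Aa measured 7222, 7817, 6232, 6226 and 6678 CPM in PBS, 7411, 7351, 8969.9, 9161 and 7549 CPM after mono-IL10 and 5392, 5541, 5958, 6680.04 and 5387 CPM after IL10/2-Trikine. Each mono-IL10 mouse lay above each IL10/2-Trikine mouse, and the PBS mice overlapped both. Cd74 measured 15597, 15642, 14263, 13386 and 13949 CPM in PBS, 15147, 14276, 17824, 16829.7 and 15432 CPM after mono-IL10 and 10089, 11359, 12058, 13096 and 9739 CPM after IL10/2-Trikine, and each IL10/2-Trikine mouse lay below each mouse of both other groups.

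In IL10/2-Trikine against mono-IL10, 4 of the 7 genes were lower in dendritic cell-like cells and 0 higher, among 1.62% of all genes called and 1.26% called lower. Cd74 fell by 34.7% (log2FC -0.61 ± 0.086, adjusted p = 0.00104), H2-Aa fell by 34.02% (log2FC -0.60 ± 0.094, adjusted p = 0.00242), H2-Ab1 fell by 35.4% (log2FC -0.63 ± 0.10, adjusted p = 0.00242) and H2-Eb1 fell by 35.05% (log2FC -0.62 ± 0.10, adjusted p = 0.00329). H2-DMb1 was at log2FC -0.61 ± 0.18, adjusted p = 0.0781, and H2-DMa at log2FC -0.40 ± 0.12, adjusted p = 0.0955. Ciita, at 66.8, 63.3, 55.1, 54.2 and 60.6 CPM in mono-IL10 and 64.8, 76.5, 109.7, 92.01 and 27.7 CPM in IL10/2-Trikine, was at log2FC 0.15 ± 0.22, adjusted p = 0.849, so these 3 did not pass by edgeR. DESeq2 also called H2-DMb1 (-0.63) and H2-DMa (-0.42).

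Against PBS, 0 of the 7 genes were called in dendritic cell-like cells in either treated group by edgeR. In IL10/2-Trikine 6 genes had an unadjusted p below 0.05, with Cd74 at log2FC -0.41 ± 0.085, adjusted p = 0.0515 and H2-Ab1 at log2FC -0.43 ± 0.10, adjusted p = 0.0536, where 0.144% of all genes were called. DESeq2 called 5 and the test without a filter on low counts 6, and no share over all genes is given for either fit. In mono-IL10 4 genes had an unadjusted p below 0.05, with H2-Aa at log2FC 0.32 ± 0.093, adjusted p = 0.0824 and H2-Eb1 at log2FC 0.29 ± 0.10, adjusted p = 0.162, where 2.14% of all genes were called and DESeq2 called 0. The median over the 7 genes was -0.41 in IL10/2-Trikine and 0.20 in mono-IL10, against 0.0073 and -0.0017 over all genes tested.

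The makeup of the dendritic class differed between mice. Mature cells, the dendritic cluster lowest in class II, made up 25.3% ± 3.35 in PBS, 25.2% ± 11.8 after mono-IL10 and 35.9% ± 12.8 after IL10/2-Trikine. The 6 tumor epithelial markers summed to 87.9 to 353 CPM in PBS, 98.6 to 480 CPM after mono-IL10 and 328 to 955 CPM after IL10/2-Trikine dendritic cell-like cells, with Cldn4 at 0. The 6 neutrophil markers summed to 574 to 1449 CPM in PBS, 64.6 to 656 CPM after mono-IL10 and 276 to 1497 CPM after IL10/2-Trikine, with medians of 742, 215 and 713 CPM, and their part in the class II levels was not tested. Leaving out droplets with 2 or more UMIs of T, NK or tumor epithelial markers kept 326, 144 and 143 of 527, 293 and 210 cells. Then 0 genes passed in IL10/2-Trikine against mono-IL10, with H2-Aa at -0.25 and Cd74 at -0.23. The markers included Cd4, Cd8a and Cdh1, and whether dendritic cells themselves held these was not tested. The filter therefore cannot tell mixed droplets from such cells. With fixed weights for 2 of the clusters 0 passed as well, with H2-Aa at -0.34 and Cd74 at -0.31.

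The cDC2-like cluster 43, a part of the dendritic class, gave the same 4 calls alone. It was not refitted without mixed droplets. H2-Aa measured 8835, 9997, 9138, 8192 and 9068 CPM in PBS, 9735, 11109.8, 12276, 11644 and 9805 CPM after mono-IL10 and 8514, 8052, 8107, 8413 and 10067 CPM after IL10/2-Trikine. The IL10/2-Trikine mice except mouse 5 lay below each mono-IL10 mouse, and the mono-IL10 mice except 1 and 5 lay above each PBS mouse. In IL10/2-Trikine against mono-IL10, Cd74 (log2FC -0.48 ± 0.071, adjusted p = 0.00126), H2-Eb1 (log2FC -0.49 ± 0.087, adjusted p = 0.00553), H2-Aa (log2FC -0.45) and H2-Ab1 (log2FC -0.43) were lower, among 0.764% of all genes called lower. In mono-IL10 against PBS, H2-Aa (log2FC 0.35 ± 0.085, adjusted p = 0.0173), H2-Eb1 (log2FC 0.34) and Cd74 (log2FC 0.25) were higher, among 2.4% called higher, and 0 were higher without PBS mouse 4.

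Whether a treatment acted differently on both classes was tested within mice, by an exact two-sided permutation test over the 252 splits of 5 against 5, whose smallest p is 0.00794. None of 21 differences passed after adjustment, and a lone gene at that smallest p could not have passed. The lowest exact p, 0.0714 (adjusted p = 0.4697), belonged to H2-Aa in mono-IL10 against PBS, where the effect on log2 CPM was -0.44 in macrophage-like and 0.24 in dendritic cell-like cells, a difference of -0.68. The opposite signs in both classes are therefore values side by side, not a tested difference.

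The share of cells with a UMI was compared after each cell was thinned to 2000 UMIs. H2-Aa was detected in 53.2% ± 10.9 (PBS), 42.1% ± 8.64 (mono-IL10) and 45.1% ± 7.38 (IL10/2-Trikine) of macrophage-like cells. Before thinning, the shares over all cells were 61.7%, 51.2% and 47.6%. In T and NK cells, which should lack the gene, the thinned shares were 8.61%, 3.12% and 2.21% (unthinned 12.9%, 9.13% and 4.25%), at median depths of 2827, 4156 and 2608 UMIs. Thinning left out 234, 111 and 727 macrophage-like cells and 39, 24 and 59 T and NK cells. In dendritic cell-like cells 94.7%, 96.95% and 93.02% held H2-Aa, so detection there was near its ceiling. Ciita was detected in 2.41%, 1.39% and 1.83% of macrophage-like and in 13.5%, 9.81% and 12.8% of dendritic cell-like cells. Its shares were 0.345%, 0% and 0.171% in T and NK cells and 1.64%, 1.70% and 1.75% in tumor epithelial cell-like cells.

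T and NK cells served as the background, since mouse T cells are not known to make class II. H2-Aa measured 143, 47.1, 61.4, 86.98 and 70.8 CPM in PBS, 22.1, 24.5, 4.86, 32.7 and 23.4 CPM after mono-IL10 and 32.8, 25.9, 8.05, 20.4 and 16.3 CPM after IL10/2-Trikine. Each PBS mouse lay above each mouse of the treated groups. Cd74 measured 306, 195, 184, 338 and 148 CPM in PBS, 87.4, 121, 63.2, 77.3 and 38.95 CPM after mono-IL10 and 154, 59.5, 40.2, 68.1 and 68.6 CPM after IL10/2-Trikine, where IL10/2-Trikine mouse 1 reached the PBS range. Of the 7 genes, 4 passed the filter on low counts. Relative to PBS these 4 were lower in IL10/2-Trikine, among 9.49% of all genes called and 4.79% called lower. H2-Eb1 was at log2FC -2.33 ± 0.39, adjusted p = 0.000427, H2-Aa at log2FC -1.84 ± 0.36, adjusted p = 0.00176, H2-Ab1 at log2FC -1.62 ± 0.47, adjusted p = 0.0289 and Cd74 at log2FC -1.60 ± 0.30, adjusted p = 0.00124. In mono-IL10, H2-Aa (log2FC -1.66 ± 0.28, adjusted p = 0.00169), H2-Eb1 (log2FC -1.62) and Cd74 (log2FC -1.54) were lower, among 1.11% called and 0.413% called lower, and H2-Ab1 was at log2FC -0.81 ± 0.35, adjusted p = 0.269. The 6 neutrophil markers in T and NK cells summed to 10.9 to 413 CPM in PBS, 4.86 to 12.1 CPM in mono-IL10 and 0 to 211 CPM in IL10/2-Trikine, with medians of 44.7, 8.76 and 16.3 CPM, and their part was not tested. Between the treated groups edgeR called 0, with 0 below an unadjusted 0.05 and 0 by DESeq2, where 8.84% of all genes were called.

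Set against the macrophage-like level of the same mouse, H2-Aa in T and NK cells stood at 4.41% ± 2.69 in PBS, 1.42% ± 0.697 after mono-IL10 and 1.55% ± 0.683 after IL10/2-Trikine. Cd74 stood at 4.41% ± 1.56, 1.87% ± 0.667 and 2.16% ± 1.02. Macrophage transcripts gave a reference for RNA from macrophages, but not for class II RNA from other cells. Dendritic cell-like cells and the unnamed cluster 16 (993, 210 and 133 cells in the same order of groups) were also high in class II. The part of their RNA in T and NK cells was not tested. C1qa, a complement subunit, stood at 1.47% ± 0.428, 1.07% ± 0.385 and 1.75% ± 0.547, and Apoe, an apolipoprotein, at 1.24% ± 0.0660, 0.998% ± 0.304 and 1.44% ± 0.6402. The means of 5 such transcripts ran from 0.998% to 1.46% in mono-IL10 and from 1.40% to 1.75% in IL10/2-Trikine, ranges that held H2-Aa, and from 1.24% to 1.91% in PBS, below H2-Aa. Above these ranges were H2-Ab1 (2.57% ± 1.204), Cd74 (1.87% ± 0.667) and H2-Eb1 (1.596% ± 0.641) in mono-IL10 and Cd74 (2.16% ± 1.02) in IL10/2-Trikine, while H2-Ab1 (1.61%) lay inside and H2-Eb1 (1.35% ± 0.577) below the range in IL10/2-Trikine. H2-DMb1 (1.74% and 2.10%) and Ciita (6.85% and 5.69%) were above as well in mono-IL10 and IL10/2-Trikine, on 1 to 5 UMIs in T and NK cells of a group. Of the macrophage transcripts, Lyz2 (lysozyme) was itself lower in macrophage-like cells of both treated groups than in PBS (log2FC -0.84 ± 0.079, adjusted p = 3.33e-07 and log2FC -0.91 ± 0.080, adjusted p = 3.19e-07). H2-DMa had means of 7.45% ± 2.897, 6.01% ± 0.608 and 4.799% ± 3.23, above those transcripts in each group. With the sums per mouse thinned to the lowest total, 1 gene was left to test, Cd74, and it was called in both treated groups against PBS. Leaving out mixed droplets left 2 to test, H2-Aa and Cd74, both called in both groups. With fixed weights for 2 of the annotated T and NK clusters, the others being left out, limma passed 0 of 6 tested in either. IL10/2-Trikine against PBS was then at -0.15 for H2-Aa, -0.12 for H2-Ab1, -1.06 for Cd74 and -3.08 for H2-Eb1. NK cells were 99 of 348 annotated cells in PBS, 189 of 635 in mono-IL10 and 219 of 400 in IL10/2-Trikine, and in PBS the median H2-Aa level over mice was 74.96 CPM in annotated T cells and 28.2 CPM in annotated NK cells.

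**Figure D4:**
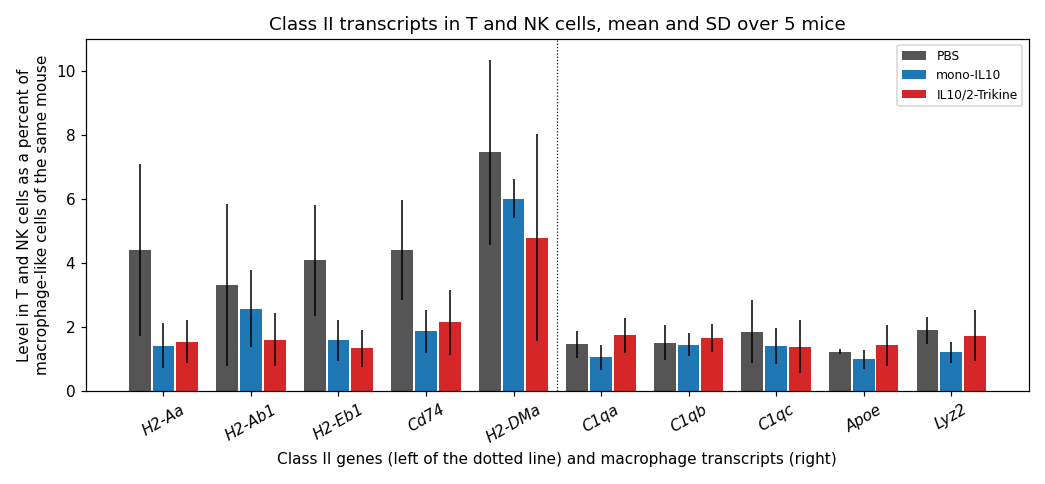
Level in T and NK cells as a percent of the macrophage-like level of the same mouse, for class II genes and for the macrophage transcripts C1qa, C1qb, C1qc, Apoe and Lyz2, by treatment. H2-Aa averages 4.41% in PBS, 1.42% after mono-IL10 and 1.55% after IL10/2-Trikine, while C1qa averages 1.47%, 1.07% and 1.75%.

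Genes around the class II pathway were read from 5 lists in the same fits. Of 9 genes for antigen processing, 5 rose in macrophage-like cells in mono-IL10 against PBS and 0 fell, where 12.5% of all genes were called higher, with a list median of 0.37. They were Ctsl (log2FC 1.38 ± 0.11, adjusted p = 2.29e-08), Ifi30 (log2FC 0.65 ± 0.090, adjusted p = 2.74e-05), Lgmn (log2FC 0.57 ± 0.079, adjusted p = 3.06e-05), Ctss (log2FC 0.49 ± 0.070, adjusted p = 3.46e-05) and Ctsb (log2FC 0.37 ± 0.055, adjusted p = 6.48e-05). Ctsl and Ctss encode cathepsins that cut the invariant chain, Lgmn and Ctsb encode lysosomal proteases, and Ifi30 encodes a reductase that opens disulfide bonds of antigens. In IL10/2-Trikine against PBS 5 of 9 rose and 0 fell, the same genes, where 8.54% of all genes were called higher, with Ctsl at log2FC 1.05 ± 0.11, adjusted p = 1.72e-06 and Lgmn at log2FC 0.42 ± 0.079, adjusted p = 0.001103, and a list median of 0.20.

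Among 3 tested genes of class II turnover, 1 rose and 1 fell in each treated group against PBS, where 12.5% (mono-IL10) and 8.54% (IL10/2-Trikine) of all genes were called higher. Marchf1, whose product sends surface class II for degradation, rose in mono-IL10 (log2FC 0.43 ± 0.089, adjusted p = 0.00146) and in IL10/2-Trikine (log2FC 0.47 ± 0.10, adjusted p = 0.00244) against PBS. Cd83, whose product shields class II from Marchf1, fell in mono-IL10 (log2FC -0.28 ± 0.10, adjusted p = 0.0429) and in IL10/2-Trikine (log2FC -0.82 ± 0.10, adjusted p = 1.44e-05). Cd83 was also lower in IL10/2-Trikine than in mono-IL10 (log2FC -0.54 ± 0.10, adjusted p = 0.00175). Of 6 costimulatory genes, 4 fell and 0 rose in IL10/2-Trikine against PBS, where 7.69% of all genes were called lower, namely Icosl (log2FC -0.84 ± 0.22, adjusted p = 0.01295), Cd80 (log2FC -0.43 ± 0.094, adjusted p = 0.00396), Cd274 (log2FC -0.37 ± 0.11, adjusted p = 0.0324) and Cd86 (log2FC -0.30 ± 0.080, adjusted p = 0.0144). In mono-IL10, 2 rose, Pdcd1lg2 (log2FC 0.80 ± 0.29, adjusted p = 0.0479) and Cd274 (log2FC 0.30 ± 0.11, adjusted p = 0.0471), and 1 fell, Icosl (log2FC -0.76 ± 0.18, adjusted p = 0.00428), where 12.5% of all genes were called higher and 11.6% lower. Cd274 and Pdcd1lg2 encode the ligands of PD-1 and so belong to the inhibitory side of that list.

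Of 16 genes of class II transcription, 1 rose in macrophage-like cells in mono-IL10 against PBS, Irf8 (log2FC 0.32 ± 0.063, adjusted p = 0.000747), where 12.5% of all genes were called higher, and 0 were called in IL10/2-Trikine against PBS by edgeR, with 1 below an unadjusted 0.05 and 1 by DESeq2, where 16.2% of all genes were called. The RFX and NF-Y subunits were among those that did not pass. Of the other class II genes, 4 of 5 passed the filter. H2-Eb2 was lower in mono-IL10 (log2FC -1.32 ± 0.27, adjusted p = 0.00112) and in IL10/2-Trikine (log2FC -1.26 ± 0.33, adjusted p = 0.0129), and H2-Ob was lower in mono-IL10 (log2FC -1.04 ± 0.26, adjusted p = 0.00652), at levels of a few CPM and, for H2-Eb2, with reads that the near-identical H2-Eb1 makes uncertain. Of all genes, 11.6% were called lower in mono-IL10 and 7.69% in IL10/2-Trikine. Between the treated groups, Cd274 (log2FC -0.66 ± 0.11, adjusted p = 0.00104), Ctsl (log2FC -0.33 ± 0.11, adjusted p = 0.0495) and Irf8 (log2FC -0.21 ± 0.066, adjusted p = 0.04404) were lower in IL10/2-Trikine, where 5.97% of all genes were called lower. Of the tumor epithelial transcripts read as a sign of mixed droplets, Krt8 (log2FC 0.98 ± 0.20, adjusted p = 0.00197) and Krt18 (log2FC 0.66 ± 0.22, adjusted p = 0.0483) were higher in IL10/2-Trikine than in PBS.

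In dendritic cell-like cells, 2 of 9 processing genes were higher in mono-IL10 than in PBS, Ctsl (log2FC 1.41 ± 0.26, adjusted p = 0.00597) and Ifi30 (log2FC 0.43 ± 0.11, adjusted p = 0.0341), and so were both chains of H2-O, H2-Oa (log2FC 0.97 ± 0.17, adjusted p = 0.00436) and H2-Ob (log2FC 0.67 ± 0.16, adjusted p = 0.0276), where 1.35% of all genes were called higher. H2-O binds H2-DM and holds back its peptide exchange. In IL10/2-Trikine against PBS 0 genes of the 5 lists were called by edgeR, with 6 below an unadjusted 0.05 and 2 by DESeq2, where 0.144% of all genes were called. Against mono-IL10 1 was lower, Spi1, a myeloid transcription factor (log2FC -0.57 ± 0.14, adjusted p = 0.0472), where 1.26% of all genes were called lower. In monocyte-like cells, Lgmn (log2FC 0.86 ± 0.19, adjusted p = 0.0155) and Ctsl (log2FC 0.87 ± 0.20, adjusted p = 0.0204) were higher in mono-IL10 than in PBS, and Cd83 (log2FC -0.99 ± 0.24, adjusted p = 0.0294) and Cd80 (log2FC -0.88 ± 0.22, adjusted p = 0.0363) were lower, where 1.43% of all genes were called higher and 0.936% lower. Ctsl was therefore higher in mono-IL10 in each of the 3 myeloid classes. Macrophage markers had medians of 4904 CPM (PBS) and 3866 CPM (mono-IL10) in monocyte-like cells. In dendritic cell-like cells these medians were 2698 and 2293 CPM. No droplets were left out for macrophage markers, and the part of macrophage RNA in the Ctsl levels of both classes was not tested.

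Genes that followed the class II pattern were ranked by Pearson correlation with the mean log2 CPM of H2-Aa, H2-Ab1, H2-Eb1 and Cd74. Over 60 clusters, Ifi30 (r = 0.909), Mgl2 (0.908), Htr7 (0.897), Spint1 (0.891) and Ccdc162 (0.884) were closest among 6722 genes. Over the 15 mice in macrophage-like cells, Dusp2 (r = 0.885), H2-Q4 (0.842), Phlpp1 (0.826), Klra2 (0.816) and B2m (0.813) were closest among 5912 genes. Clusters share libraries and mice share a library within each group, so these values are descriptions with no test. Ifi30, a processing gene, is the closest over clusters and rose with both treatments in macrophage-like cells, where the chains did not rise.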

How the data were processed

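The authors aligned 5′ single-cell reads to GRCm39 with Cell Ranger 9 and deposited raw UMI counts per gene and barcode, with 5 hashtag features per library. Their table of annotated T and NK cells also gives, as deposited by the authors, UMI counts per cell and the percent of mitochondrial UMIs, and its 7858 cells of a group outside these libraries were not used. Values of 34187 genes were used as deposited, and the submitters' processing notes name Seurat 5.1.0 and DESeq2 1.46.0. The 7 genes, the pathway lists and the markers were chosen with earlier results of these data known.

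Kept barcodes had 1000 or more genes and no more than 10% mitochondrial UMIs, mice were called with HTODemux (Seurat 5.3.0, quantile 0.99), and barcodes with more than 1 hashtag were left out, with no other doublet caller. The annotated T and NK cells were an exception. They were kept whatever this call was, and their mouse was taken from the authors' table. Cells were grouped into 60 k-means clusters on 40 components of 2000 variable genes without 12 class II genes (scikit-learn 1.9.0, Python 3.11.15), and clusters were named "-like" from marker lists. UMIs were summed per mouse, with at least 10 cells and 10000 UMIs, and tested with edgeR 4.0.16 (R 4.3.3; quasi-likelihood, TMM, filterByExpr, all 3 groups in 1 fit, Benjamini-Hochberg per comparison, threshold 0.05). DESeq2 1.42.0, limma 3.58.1, other filters, groupings and leaving out each mouse were alternatives. The edgeR fit was tested on simulated counts. Differences between classes used exact permutation tests on log2(CPM + 1). Pathway genes are named up to 8 per class and comparison by size of change among those called, and further called genes of short lists were named after their values were seen. UMI intervals would cover counting error only, and precision is limited by cells per mouse. That the mice were separate animals is from the labels, and their numbers are hashtag numbers.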

Additional observations from a re-analysis of the deposited data

Results flagged for a closer look

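Of 77 groups of 5 mice examined for the 7 genes, 4 held a mouse whose gap to the nearest other mouse took up more than 0.71 of the group's range, and all 4 were in T and NK cells. For normally distributed values, chance alone flags about 1 group in 20. That rate does not hold for counts near 0, where a group with 1 mouse above 0 is always flagged. Cd74 in IL10/2-Trikine mouse 1 was 154 CPM, against 40.2 to 68.6 CPM in the other 4 mice. H2-DMb1 in mono-IL10 mouse 2 was 5.26 CPM, against 0 to 1.09 CPM. Ciita was 3.62 CPM in PBS mouse 2 and 2.59 CPM in IL10/2-Trikine mouse 2, against 0 in the other mice of each group, so that these values rest on very few UMIs. No class II gene had a treatment effect that differed between macrophage-like and dendritic cell-like cells by the exact permutation test after adjustment. Adjusted over 21 tests, a lone gene at the smallest p of that test, 0.00794, could not pass.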

How the results depend on the processing

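Counts below are of the 7 genes called, and values are log2 fold changes unless named otherwise. No share over all genes is given for the alternative fits, so their counts cannot be set against a background. The cause of each change was not tested, except where fewer cells or mice are named. No paired analysis was possible because hashtag numbers name mice within a library and pair none across treatments. In macrophage-like cells, the 1 call of mono-IL10 against PBS became 0 with the UMI sums per mouse thinned to the lowest total (thinned UMIs, Ciita -0.56), 0 with fixed cluster weights (-0.59) and 2 with means over cells. The 5 calls of IL10/2-Trikine against PBS became 2 with DESeq2, 6 without a filter on low counts, 6 with thinned UMIs (in both, H2-Aa was added), 2 with cells of at least 2000 genes, 0 with 30 components and 40 clusters, 0 with a naming ratio of 0.25 and 0 with fixed cluster weights. They ran from 0 to 6 with 1 mouse left out. Against mono-IL10, the count of 0 became 1 without a filter on low counts and ran from 0 to 1 with 1 mouse left out (1 without mono-IL10 mouse 5), and fixed cluster weights reversed H2-DMa (0.047), H2-Aa (0.094) and H2-Eb1 (0.047).

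In monocyte-like cells, 30 components and 40 clusters, with 489 to 1013 cells a group, gave 2 calls for mono-IL10 and 3 for IL10/2-Trikine against PBS. The cluster named monocyte-like there shares leading genes with the unnamed cluster 21. In the clustering used, means over cells turned H2-DMb1 to 0.29 in IL10/2-Trikine against PBS. Between the treated groups, H2-DMb1 was -0.10 without a filter and ran from -0.015 to 0.24 with 1 mouse left out, and the other clustering gave -0.050 for H2-DMa, -0.30 for H2-DMb1, 0.072 for H2-Aa, 0.074 for H2-Eb1 and 0.037 for Cd74. With cells of at least 2000 genes, 4 mice held monocyte-like cells, the smallest exact p was 0.125, and the log2 differences to macrophage-like cells were 0.73 (H2-Aa), 0.75 (H2-Ab1), 0.57 (H2-Eb1), 0.58 (Cd74), 0.64 (H2-DMa), 1.27 (H2-DMb1) and 1.30 (Ciita).

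In dendritic cell-like cells, the 0 calls of IL10/2-Trikine against PBS became 1 with RLE, 6 without a filter, 5 with DESeq2, 1 with thinned UMIs, 5 with cells of at least 2000 genes and 3 with the other clustering. They ran from 0 to 2 with 1 mouse left out (2 without PBS mouse 4, mono-IL10 mouse 3 or IL10/2-Trikine mouse 4, 1 without mono-IL10 mouse 2, 4 or 5). Ciita turned to 0.12 with cells of at least 2000 genes, 0.23 without mixed droplets, 0.047 with the other clustering and 0.090 with fixed weights, and ran from -0.16 to 0.075 with 1 mouse left out. Against mono-IL10, the 4 calls became 0 without mixed droplets and 0 with fixed weights, and means over cells lost H2-Eb1 (-0.48). H2-DMa and H2-DMb1 were added with DESeq2 (-0.42 and -0.63) and without a filter (-0.54 and -0.75). H2-DMa was added with cells of at least 2000 genes (-0.75), where 2 IL10/2-Trikine mice had enough cells. In mono-IL10 against PBS, the 0 calls ran from 0 to 1 (1 without PBS mouse 2), Cd74 was -0.0085 without mixed droplets, H2-DMb1 was -0.11 with the other clustering and ran from -0.052 to 0.18, and H2-DMa ran from -0.10 to 0.020.

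In T and NK cells, the 3 calls of mono-IL10 against PBS became 1 with thinned UMIs, where only Cd74 was tested, 0 with cells of at least 2000 genes, where only Cd74 was tested (-0.93), and 0 of 6 tested with fixed weights (H2-Ab1 1.08), and DESeq2 gave no adjusted p for H2-Aa, H2-Eb1 and Cd74. The 4 calls of IL10/2-Trikine became 1 of 1 tested with thinned UMIs, 2 of 2 tested without mixed droplets and 0 of 6 tested with fixed weights. Between the treated groups, means over cells gave 0.045 for H2-Aa and 0.10 for Cd74, fixed weights 0.14 for Cd74, and with 1 mouse left out H2-Aa ran from -0.34 to 0.011 and Cd74 from -0.42 to 0.13.

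Single clusters were compared after the class results were seen. DESeq2 gave 0 for the 3 calls of cluster 5 and 0 for the 1 of cluster 21 (both mono-IL10 against PBS), 2 for the 5 of cluster 34, 0 for the 2 of cluster 50 against mono-IL10, and 1 for the 0 of cluster 43 and 1 for the 0 of cluster 55 in IL10/2-Trikine against PBS. RLE reversed H2-DMb1 in cluster 5 (0.020), H2-Eb1 in cluster 29 (0.0018) and in cluster 34 (0.0042) between the treated groups, and H2-DMa in cluster 50 against PBS (-0.0082), for which DESeq2 gave -0.028. DESeq2 gave H2-Aa -0.034 in cluster 58 in IL10/2-Trikine against PBS. With 1 mouse left out, calls ran from 1 to 6 (mono-IL10) and 0 to 4 (IL10/2-Trikine) against PBS in cluster 34, 0 to 3 in cluster 43 (mono-IL10 against PBS), and 0 to 2 (mono-IL10), 1 to 4 (IL10/2-Trikine) and 0 to 3 (between the treated groups) in cluster 50. Between the treated groups in cluster 34, H2-Ab1 ran from -0.17 to 0.024, H2-Eb1 from -0.14 to 0.079, H2-Aa from -0.074 to 0.12 and Cd74 from -0.16 to 0.018. In cluster 43, mono-IL10 against PBS, Ciita ran from -0.080 to 0.25 and H2-DMa from -0.14 to 0.019. In cluster 50, H2-DMa ran from -0.038 to 0.30 (mono-IL10) and from -0.15 to 0.19 (IL10/2-Trikine). The difference of effects between both classes, IL10/2-Trikine against PBS, ran from -0.011 to 0.14 for H2-DMa and from -0.18 to 0.044 for H2-DMb1. Fixed weights were not run for monocyte-like cells, which were 1 cluster. The 31 monocyte-like cells of IL10/2-Trikine in the clustering used and the low counts of Ciita limit what could be seen.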

Other observations

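Outside the classes compared above, class II transcripts were seen at a wide range of levels, given here over all cells of a cluster with no test. The 11 tumor epithelial cell-like clusters held 38.1 to 407 CPM of H2-Aa and 168 to 1463 CPM of Cd74. The highest of both was cluster 45, which was led by the interferon-induced genes Iigp1, Cxcl9, Cxcl10, Cxcl11 and Ubd. Its Ciita level was 44.4 CPM, while the 9 macrophage-like clusters held 1.51 to 20.2 CPM of Ciita and 199.7 to 3598 CPM of H2-Aa. In the 14 mice with enough cells of cluster 45, Ciita was 36.5 to 51.4 CPM, and the lowest of these is above the highest macrophage-like value of any mouse, 22.4 CPM. H2-Aa in that cluster was 222 to 518 CPM in PBS, 327 to 593 CPM in mono-IL10 and 291 to 538 CPM in IL10/2-Trikine, so the treatments overlapped.

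Cluster 15, which met both the B cell and the plasmacytoid markers and stayed unnamed, held 1683 CPM of H2-Aa and 4228 CPM of Cd74 in 364 cells. Its macrophage markers summed to 8315 to 22634 CPM in the 14 mice with enough cells, and its B cell markers to 432 to 1834 CPM, and the part of the macrophage signal in its class II level was not tested. Unnamed cluster 16 held 6415 CPM of H2-Aa, 588 CPM of H2-DMa and 37.2 CPM of Ciita over all its cells. Neutrophil-like clusters held 220.1 to 383 CPM of H2-Aa, and per mouse 264 to 1329 CPM in PBS and 24.7 to 204 CPM in mono-IL10, where their macrophage markers summed to 785 to 5065 and 771 to 1071 CPM. In IL10/2-Trikine, 2 mice had enough neutrophil-like cells, with 30.9 and 489 CPM of H2-Aa and macrophage markers of 2583 and 4233 CPM in sum. T cell-like clusters held 86.1 and 534 CPM of H2-Aa, NK cell-like clusters 73.0 to 86.8 CPM, fibroblast-like clusters 47.1 to 135 CPM and endothelial cell-like clusters 84.9 to 168 CPM.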
